A study of Rattus norvegicus with 12 samples.

Results

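The Reg family (regenerating proteins) was followed through pancreatic islets of rat offspring whose dams were lean or had gestational diabetes mellitus (GDM). Its members were the gene entries of the deposited table that carry the symbols Reg1a, Reg3a, Reg3b, Reg3g or Reg4, and all 5 were present among 17407 entries. Hand-picked islets of Sprague-Dawley offspring aged 15 weeks gave 12 libraries, 3 for each pairing of dam and weaning diet. Lean dams, 6 in number, ate a low-fat diet (LF, 10% fat). Another 6 dams, those with GDM, were fed HFS, rich in fat and sucrose (45% fat), from 6 weeks before mating until the end of suckling. Pups were weaned for 12 weeks onto LF (groups Lean-LF and GDM-LF) or HFS (groups Lean-HFS and GDM-HFS), and all had sires fed LF. GDM of the dam and the HFS diet of the dam cannot be told apart, because every GDM dam ate HFS. The labels used here name neither the sex nor the litter of an offspring, and p-values therefore reflect only how much these 12 samples vary.

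Reg proteins are small secreted proteins built around a C-type lectin domain. Reg1a (lithostathine, or pancreatic stone protein) was the founding member, found in regenerating islets. Reg3a, Reg3b and Reg3g are known as pancreatitis-associated proteins, since acinar cells, which secrete the digestive enzymes, make them in large amounts during inflammation. Reg3b and Reg3g also act as antimicrobial lectins of the gut lining, and Reg4 is best known from the intestine. Cytokines of the IL-6 and IL-22 families induce Reg genes through the transcription factor STAT3, and Extl3 has been described as a receptor for Reg proteins.

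On build rn5, the build of the deposited table, 4 members lie together on chromosome 4 within 60767 bases. In order they are Reg3b (174173099 to 174176337, plus strand), Reg3a (174183748 to 174186487, plus), Reg1a (174199389 to 174202053, plus) and Reg3g (174231310 to 174233865, minus). The table lists no other gene between them. The nearest entries are Ctnna2, a catenin gene 427115 bases before the cluster (mean value 55.5 over the 12 libraries), and Lrrtm4, a synaptic adhesion gene 1158017 bases after it (36.0). Reg4 lies apart, on chromosome 2 (219873827 to 219885388, plus strand). Values in every member are reads over exons scaled to library depth, and reads that could belong to several of these related genes may have been split in counting.

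Since the 4 clustered genes moved together across libraries (values below), their promoters are shown. Each line holds the 250 bases before the start given by RefSeq on build GRCr8, 5′ to 3′ on the strand of the gene. The positions are chr4:112419526-112419775 (plus) for Reg3b, chr4:112430147-112430396 (plus) for Reg3a, chr4:112450216-112450465 (plus) for Reg1a and chr4:112484739-112484988 (minus) for Reg3g. Reg3a has 2 RefSeq starts, and only the window before 1 of them was used. Capitals mark matches, on either strand, to TTCNNNGAA, the form bound by STAT factors, or to TTTCCCA, the RBPJ part of the acinar PTF1 element.
Reg3b: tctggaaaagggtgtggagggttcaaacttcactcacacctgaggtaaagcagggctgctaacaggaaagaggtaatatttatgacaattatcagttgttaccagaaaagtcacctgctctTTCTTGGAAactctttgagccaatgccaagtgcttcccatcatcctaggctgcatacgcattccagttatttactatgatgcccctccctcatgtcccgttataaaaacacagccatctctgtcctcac
Reg3a: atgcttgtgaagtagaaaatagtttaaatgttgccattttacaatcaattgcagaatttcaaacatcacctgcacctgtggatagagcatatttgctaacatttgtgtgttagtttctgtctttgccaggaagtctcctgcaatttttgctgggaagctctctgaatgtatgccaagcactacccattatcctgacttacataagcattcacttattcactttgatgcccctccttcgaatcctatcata
Reg1a: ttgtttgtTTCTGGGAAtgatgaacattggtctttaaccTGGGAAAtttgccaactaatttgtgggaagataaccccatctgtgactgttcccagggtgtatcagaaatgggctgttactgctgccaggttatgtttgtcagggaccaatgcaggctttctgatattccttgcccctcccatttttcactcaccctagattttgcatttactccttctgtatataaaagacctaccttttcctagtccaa
Reg3g: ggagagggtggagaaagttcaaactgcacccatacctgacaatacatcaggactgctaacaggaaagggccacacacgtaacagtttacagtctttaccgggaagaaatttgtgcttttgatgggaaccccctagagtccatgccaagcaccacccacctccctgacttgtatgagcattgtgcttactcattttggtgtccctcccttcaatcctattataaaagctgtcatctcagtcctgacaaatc
Reg3b held 1 match to TTCNNNGAA, TTCTTGGAA, from 129 to 121 bases before the start. Reg1a held TTCTGGGAA from 242 to 234 bases before it and, on the other strand, TGGGAAA from 211 to 205 bases before it. No match overlapped another, and Reg3a, Reg3g and Reg4 held 0 matches to either motif in this window. For Reg3a that covers 1 of its 2 starts. Among 33469 promoter windows of the same length, 7.67% held TTCNNNGAA and 7.10% held TTTCCCA. In global alignments the most alike pair was Reg3b and Reg3g (65.4% identical columns), and the other pairs, Reg4 included, stood between 49.1% and 56.4%.

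The libraries held 11469290 to 27492858 reads over genes, of which ribosomal RNA took 1.84% to 39.0% in libraries of lean dams (5 of 6 at 11.3% or more) and 1.84% to 8.55% in those of GDM dams. Insulin transcripts showed the islet origin: Ins1, the main insulin gene of the rat, stood between 829546 and 1505330 in scaled values. Markers of acinar cells were present in every library, and their summed value over 32 genes ran from 32794 in Lean-LF 1 to 805832 in GDM-LF 2. Macrophage markers, 14 genes, summed to 97.9 in GDM-LF 1 and 44.4 in GDM-HFS 3 (4 of 14 at 0) and to between 237 and 680 in the other libraries. A letter in the titles, of no stated meaning, was K in 3 libraries of GDM dams (numbers 1 and 2 of GDM-LF, number 3 of GDM-HFS) and G elsewhere. In bulk samples fewer cells of a type and less RNA per cell cannot be told apart.

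Per length, Reg3b and Reg1a ranked 41 and 45 among all 17407 entries of the table by mean value per kilobase (6274 and 6039 over the 12 libraries). Reg3a followed at rank 168 with 2434 per kilobase, and Reg3g stood far lower at rank 1090 with 306 per kilobase. By group means per kilobase the order was Reg3b, Reg1a, Reg3a, Reg3g in every group but Lean-HFS, where Reg1a was above Reg3b. Within a library the levels of Reg1a and Reg3b lay close: in Lean-LF they were 319, 3340 and 856 per kilobase for Reg1a and 362, 3584 and 938 for Reg3b. Reg3b was the higher in all 3 libraries of Lean-LF and of GDM-HFS and in 2 of 3 of GDM-LF, and Reg1a in all 3 of Lean-HFS. In Lean-HFS 1 the 2 genes were nearly level, at 3971 per kilobase for Reg1a (6718 reads) and 3962 for Reg3b (6835 reads). Reg4 had 0 reads in all 12 libraries. A count of 0 allows up to 3 reads, which is a scaled value of 0.499 to 1.73 depending on the library and covers counting error only.

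Reg1a had scaled values of 241, 2532 and 649 in Lean-LF 1 to 3 and of 3010, 1103 and 11558 in Lean-HFS 1 to 3. In GDM-LF the values were 2135, 21011 and 720, and in GDM-HFS 7543, 2344 and 2083. Within a group the highest library was 10.5-fold above the lowest in Lean-LF, 29.2-fold in GDM-LF and 3.62-fold in GDM-HFS, the most even group, and the mean of GDM-LF was 6.97-fold that of Lean-LF. Each of the 6 pairs of groups overlapped for Reg1a, Reg3a and Reg3b. For Reg3g 5 pairs overlapped, and every GDM-HFS library lay above every Lean-LF library, a pair that differs in both dam and diet. Among all genes tested the libraries of 2 groups did not overlap for 12.9% (GDM-LF higher than Lean-LF; 12.4% lower), 12.7% (GDM-HFS higher than Lean-HFS; 12.1% lower), 3.68% (Lean-HFS higher than Lean-LF; 3.95% lower) and 7.42% (GDM-HFS higher than GDM-LF; 6.61% lower). Across both factors these shares were 16% (GDM-HFS higher than Lean-LF; 14.6% lower) and 9.88% (GDM-LF higher than Lean-HFS; 10.0% lower).

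Reg3b, one of the pancreatitis-associated proteins, ran closely beside it. With lean dams its values were 280, 2771 and 725 (LF) and 3063, 902 and 9714 (HFS). With GDM dams they were 2969, 20792 and 859 (LF) and 11274, 2477 and 2372 (HFS). The library with the highest Reg1a value, GDM-LF 2, was also highest for Reg3b, and Lean-LF 1 was lowest for both.

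Reg3a had values of 81.5, 1530 and 284 (LF) and 1863, 277 and 4970 (HFS) with lean dams, and of 881, 8176 and 236 (LF) and 5670, 1019 and 776 (HFS) with GDM dams. Here too GDM-LF 2 was highest and Lean-LF 1 lowest, 100.4-fold apart, and GDM-LF 3 stood below the middle value of Lean-LF.

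Reg3g was the least abundant and the most variable of the 4. With lean dams it stood at 3.73, 65.7 and 26.1 (LF) and at 80.7, 10.7 and 254 (HFS). With GDM dams it stood at 318, 1344 and 30.0 (LF) and at 441, 106 and 130 (HFS). Lean-LF 1 rested on 14 reads (exact Poisson 95% interval 7.65 to 23.5) and GDM-LF 2 on 4788 reads, a 361-fold difference in scaled value. The 3 highest libraries for Reg3g, GDM-LF 2, GDM-HFS 1 and GDM-LF 1, were all from offspring of GDM dams, but GDM-LF 3 lay within the range of Lean-LF.

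**Figure D1:**
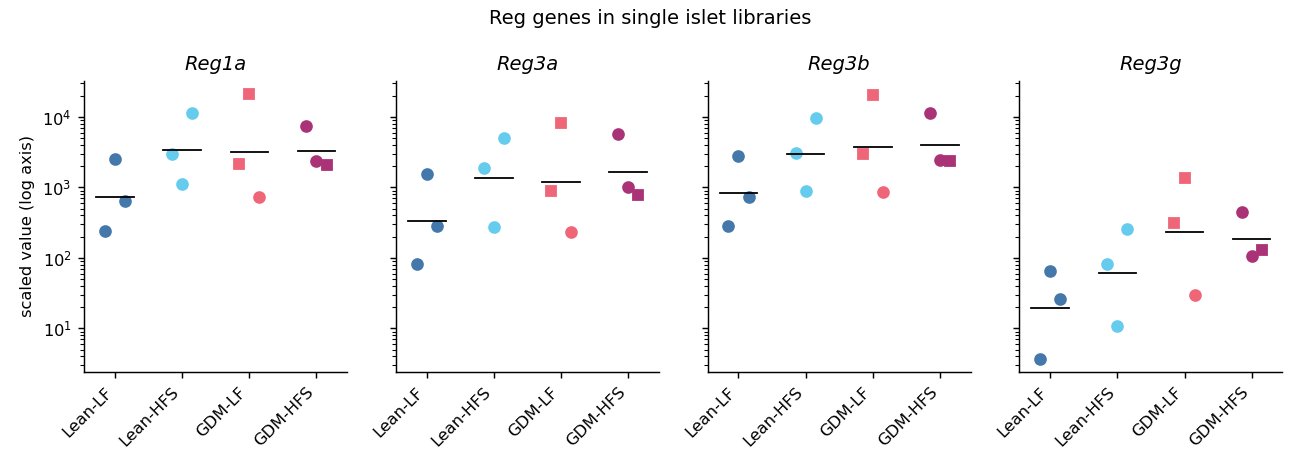
Scaled value (log axis) of the 4 detected Reg genes in each library, by group; squares are libraries with the letter K in the title, circles all others, and black lines are group means of log2(value + 1) put back on the value scale. GDM-LF 2 is the highest point in all 4 panels and Lean-LF 1 the lowest.

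These 4 genes were among the most variable in the islets. The SD of log2(scaled value + 1) over the 12 libraries was 1.82 for Reg1a, 2.05 for Reg3a, 1.80 for Reg3b and 2.31 for Reg3g, higher than for 99.8%, 99.9%, 99.7% and 99.9% of the 12339 genes tested (mean scaled value of at least 1). Part of that spread lies within groups, as the ranges above show.

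The effect of the dam was first tested as GDM against lean, averaged over both weaning diets, by limma on log2(scaled value + 1). The estimates of all 4 members tested were above 0 (Reg4 was not tested), but 0 passed an adjusted p of 0.05, where 11.6% of all genes tested passed (6.13% as higher, 5.43% as lower). The median log2 difference of the 4 was 1.19, against 0.03 over all genes tested, of which 52.7% were positive. The 4 moved together across libraries (values below), so their shared sign does not count as 4 separate observations. Reg3g came nearest: it was 5.84-fold higher (log2 2.55 ± 0.942 SE, unadjusted p = 0.0177, limma adjusted p = 0.0896). By size of the log2 difference it ranked 7 of 12339 genes, but genes with a spread as large as given above tend to rank far out by size. Reg3b (log2 1.31 ± 0.802, adjusted p = 0.284), Reg3a (1.06 ± 0.952, 0.472) and Reg1a (1.05 ± 0.811, 0.403) had intervals that spanned 0. At an unadjusted p under 0.05 limma, edgeR and DESeq2 each had 1 member. On whole reads recovered from the values edgeR called 0 members and DESeq2 called 1, Reg3g (log2 2.56, DESeq2 adjusted p = 0.0408), where DESeq2 called 20.1% of all genes it tested. The share of ribosomal RNA, given above, moved with the dam, and its part in these differences was not tested.

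On LF diet alone the 4 estimates were larger. The mean of Reg3g was 31.8 ± 31.4 with lean and 564 ± 691 with GDM dams (SD, n = 3 each; log2 3.53 ± 1.33 SE, unadjusted p = 0.0195, limma adjusted p = 0.117). Reg3b, Reg1a and Reg3a differed by 2.18, 2.11 and 1.86 on the log2 scale (limma adjusted p = 0.231, 0.253 and 0.394). By limma 0 members passed, against 1.58% of all genes tested (0.851% as higher, 0.729% as lower), and 1 had an unadjusted p under 0.05. Among the 4 members DESeq2 called Reg3g (log2 4.15, adjusted p = 0.0239), where it called 14.6% of all genes it tested, and edgeR called 0. By edgeR and by DESeq2 3 members had an unadjusted p under 0.05. Without GDM-LF 3, the library of this group with the lowest Reg values, Reg3g passed by limma (adjusted p = 0.0218; log2 3.28 and adjusted p = 0.0202 averaged over diets). In those fits 13.6% of all genes passed on LF and 17.5% averaged over diets. Leaving out the lowest library of the higher group raises the difference by construction, so this pass of Reg3g is not separate support. Over the 12 fits that each left out 1 library, the estimate averaged over diets ran from 1.92 to 3.28. Without GDM-LF 2 the estimate on LF was 2.28 (limma adjusted p = 0.356). Without the K libraries, which leaves GDM-LF 3 alone in its group on the assumption that it varies like the other groups, the difference of Reg3g on LF was 0.60 (adjusted p = 0.915) and that averaged over diets 1.20 (0.572).

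On HFS diet the estimates were nearer 0. Reg1a stood at 5224 ± 5568 with lean and 3990 ± 3080 with GDM dams (SD, n = 3 each), a log2 difference of -0.02 with a 95% interval from -2.49 to 2.45. An interval that wide does not show equal levels. Reg3g differed by 1.56 (interval -1.31 to 4.43), Reg3b by 0.43 and Reg3a by 0.27. By limma, edgeR and DESeq2 0 members passed and 0 had an unadjusted p under 0.05, with 0.0081% of all genes tested passing by limma (1 gene, edgeR 1, DESeq2 268).

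In offspring of lean dams, HFS was compared with LF weaning, and 0 members passed. Reg1a stood at 1141 ± 1222 on LF and 5224 ± 5568 on HFS (SD, n = 3 each), a log2 difference of 2.20 ± 1.15 SE by limma (unadjusted p = 0.0772, adjusted p = 1) that ranked 3 of 12339 genes by size. Reg3a, Reg3b and Reg3g differed by 2.05, 1.86 and 1.61. With the large spread of the Reg genes given above, a high rank by size alone says little. By limma, edgeR and DESeq2 0 members passed or had an unadjusted p under 0.05, and the share of all genes tested that passed by limma was 0% (269 genes at an unadjusted p under 0.05, edgeR 0 genes, DESeq2 1).

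In offspring of GDM dams the differences between HFS and LF were not resolved: 0.06 for Reg1a (95% interval -2.41 to 2.53), 0.11 for Reg3b, 0.47 for Reg3a and -0.36 for Reg3g, with SE from 1.13 to 1.35. For Reg1a the direction turned with the setting, at -0.986 by edgeR, -0.56 with the acinar level as a covariate and 2.54 without the K libraries, and the means were 7955 on LF and 3990 on HFS. No member had an unadjusted p under 0.05 by limma, edgeR or DESeq2, and 0% of all genes tested passed by limma (1188 genes at an unadjusted p under 0.05, edgeR 0, DESeq2 33). Averaged over dams, the difference between HFS and LF was 1.26 for Reg3a, 1.13 for Reg1a, 0.98 for Reg3b and 0.62 for Reg3g. These gave 0 members by each tool and 0% of all genes by limma (611 at an unadjusted p under 0.05, edgeR 0, DESeq2 2).

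The interaction is the GDM difference on HFS minus that on LF. It was negative for all 4 members: -2.13 for Reg1a, -1.98 for Reg3g, -1.75 for Reg3b and -1.59 for Reg3a, against a median of -0.01 over all genes tested. Here too the 4 are not separate observations, since they moved together across libraries. SE ran from 1.60 to 1.90, and adjusted p from 0.823 to 0.877. By each tool 0 members passed and 0 had an unadjusted p under 0.05; 0% of all genes passed by limma (730 at an unadjusted p under 0.05, edgeR 0, DESeq2 0). Comparisons in this set share groups, so their values are not independent of each other.

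**Figure D2:**
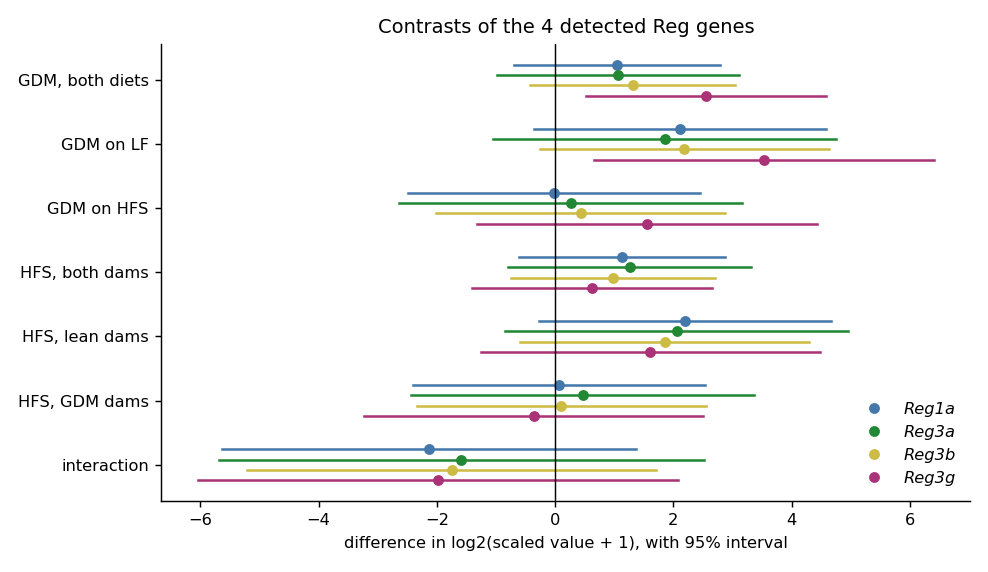
Differences in log2(scaled value + 1) for the 4 detected Reg genes in the 7 contrasts, with 95% intervals from limma over 12 libraries. Intervals exclude 0 only for Reg3g, in the GDM contrast averaged over both diets (0.52 to 4.57) and in the one on LF diet (0.67 to 6.40), before adjustment over all genes.

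The 4 genes moved together from library to library. Over the 12 libraries Reg1a and Reg3b had a Pearson r of 0.990 and a Spearman rho of 0.972 (permutation p = 1e-05 each, the smallest that 100000 resamples can give; adjusted p = 2e-05 over 6 pairs). Without the 2 libraries farthest from the median, Lean-LF 1 and GDM-LF 2, r was 0.979. Reg3a was tied as closely to Reg3b (r = 0.987, rho = 0.958) and to Reg1a (0.981, 0.972). Reg3g followed less tightly, with r = 0.910 and rho = 0.811 to Reg1a (permutation p = 9e-05 and 0.00214, adjusted 9e-05 and 0.00214), 0.907 and 0.825 to Reg3a, and 0.946 and 0.881 to Reg3b. Without Lean-LF 1 and GDM-LF 2 these r were 0.793, 0.813 and 0.881. As deviations from the group means r was 0.955, 0.965 and 0.967.

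The share of each member in the summed Reg level per kilobase was then compared, a measure chosen after the library values had been seen. Reg1a made up 42.1 ± 4.29% of the family in offspring of lean dams and 38.3 ± 4.12% with GDM dams (SD, n = 6 each), and Reg3b 41.2 ± 3.40% and 44.8 ± 2.67%. Neither difference passed (two-sided exact permutation p = 0.152 and 0.0714), and nor did that of Reg3a (15.8 ± 4.12% and 14.4 ± 3.25%, exact permutation p = 0.513). Without Lean-LF 1 the difference of Reg3b was 4.70 percentage points and passed (exact permutation p = 0.0216, adjusted p = 0.0433). After adjustment it passed with no other single library left out (exact permutation, adjusted p from 0.0866 to 0.277). With all libraries its adjusted p was 0.143.

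Reg3g differed. It made up 0.626%, 0.982% and 1.59% of the family in Lean-LF and 1.04%, 0.476% and 0.983% in Lean-HFS. In GDM-LF the shares were 5.14%, 2.68% and 1.66%, and in GDM-HFS 1.83%, 1.83% and 2.48%. All 6 libraries of GDM dams stood above all 6 of lean dams. The means were 2.60 ± 1.31% and 0.949 ± 0.386% (SD, n = 6 each). The exact permutation p was 0.00216, the smallest that 6 against 6 allows (adjusted p = 0.00866 over 4 shares). The gap between the nearest libraries is small, 1.66% in GDM-LF 3 and 1.59% in Lean-LF 3. Their Reg3g reads, not scaled to depth, were 103 (Poisson interval 84.1 to 125) and 157 (133 to 184). In proportion these intervals are wider than the gap between the 2 shares. Counting error could therefore reverse the order of these 2 libraries, on which the full separation rests.

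It follows from this order that the groups did not overlap within a weaning diet. On LF the shares were 1.06 ± 0.485% with lean and 3.16 ± 1.79% with GDM dams, and on HFS 0.833 ± 0.310% and 2.05 ± 0.377% (SD, n = 3 each; exact permutation p = 0.1 in both, the smallest that 3 against 3 allows). As a log2 ratio per length, Reg3g to Reg1a was -5.57 ± 0.710 with lean and -3.99 ± 0.653 with GDM dams (SD, n = 6 each), higher by 1.58 (exact permutation p = 0.00216). Reg3g to Reg3a was higher by 1.56 and Reg3g to Reg3b by 1.32 (exact permutation p = 0.00433 each). These ratios rest on the same values as the shares and are not separate support. In scaled values, as opposed to shares, 2.8% of all genes tested had the 6 GDM libraries above the 6 lean ones and 2.32% had them below, and Reg3g was in neither set.

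The letter K moved with this result: the 3 highest shares were those of the 3 K libraries. Among the 9 other libraries the 3 of GDM dams (1.66%, 1.83% and 1.83%) stood above the 6 of lean dams, which follows from the order of all 12. The difference was 0.822 percentage points, against 1.65 in all 12 (exact permutation p = 0.0119, the smallest that 3 against 6 allows). GDM-LF 1 and GDM-HFS 3, the libraries with the low macrophage sums of 97.9 and 44.4, were 2 of the 3 K libraries. The acinar level of the K libraries was 8.86, 12.50 and 11.01. Their level of 14 duct markers was 7.25, 7.94 and 6.36, against 5.39 to 6.84 in the other libraries. Ribosomal RNA moved with the dam as well. The lean library lowest in it, Lean-LF 3 at 1.84%, had the highest Reg3g share among lean dams (1.59%). Among libraries of GDM dams the order differed. Those highest in ribosomal RNA, GDM-LF 1 (8.55%) and GDM-LF 2 (8.35%), had the highest shares (5.14% and 2.68%). GDM-LF 3, above every GDM-HFS library in ribosomal RNA, had the lowest share (1.66%). What part the letter, macrophage, acinar or duct cells, or ribosomal RNA have in the share was not tested.

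**Figure D3:**
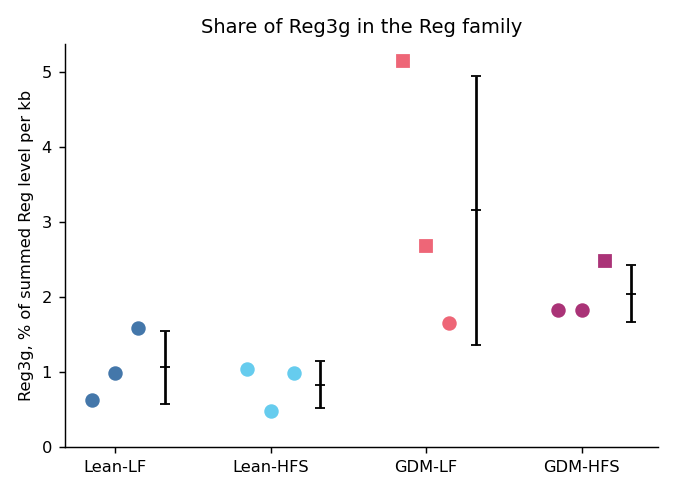
Share of Reg3g in the summed Reg level per kilobase (percent), by group; each point is a library, squares are those with the letter K in the title, and bars give the mean ± SD of 3 libraries. The 6 libraries of GDM dams lie between 1.66% and 5.14% and the 6 of lean dams between 0.476% and 1.59%.

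Acinar marker genes moved with the Reg genes. The acinar level, the mean of log2(scaled value + 1) over 32 markers such as the trypsin gene Prss1 and the transcription factor Ptf1a, was 8.68 ± 0.720 (LF) and 9.60 ± 1.26 (HFS) with lean dams and 9.99 ± 2.18 (LF) and 10.51 ± 0.488 (HFS) with GDM dams (SD, n = 3 each). Of these 32 markers 1 rose in the averaged GDM contrast by limma, where 6.13% of all genes tested were called higher. Positive estimates were held by 30 of the 32 (median log2 difference 1.08), and by 52.7% of all genes tested. The 32 markers were not tested as a set. Over the 12 libraries the Pearson r of the acinar level was 0.875 with Reg1a, 0.861 with Reg3b, 0.823 with Reg3g and 0.820 with Reg3a. The Spearman rho were 0.860, 0.811, 0.825 and 0.846 (permutation p up to 0.00188 for each r and rho, adjusted p up to 0.00188 over 4 relations). Without Lean-HFS 3 and GDM-LF 2, the libraries farthest from the median acinar level, r stood between 0.699 and 0.743. As deviations from the group means it stood between 0.783 and 0.876. The fitted slopes were 1.16 to 1.43 log2 units of a Reg gene for each log2 unit of acinar level.

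Some libraries departed from that relation. GDM-HFS 3 had an acinar level of 11.01, close to 11.04 in Lean-HFS 3, but a Reg1a value of 2083 against 11558. GDM-LF 1 had an acinar level of 8.86 and a Reg3g value of 318, whereas Lean-HFS 2 at 8.73 had 10.7. With the acinar level as a covariate, the GDM difference averaged over diets was 1.18 for Reg3g (limma adjusted p = 0.298), 0.08 for Reg3b, -0.27 for Reg1a and -0.33 for Reg3a. The level of 14 duct markers was 5.77 (LF) and 6.02 (HFS) with lean dams and 7.08 (LF) and 6.20 (HFS) with GDM dams, and GDM-LF 2 was highest there as well (7.94). Of the pair compared for Reg3g, GDM-LF 1 had a duct level of 7.25 and Lean-HFS 2 one of 5.39. What part acinar or duct cells have in the Reg values was not tested.

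**Figure D4:**
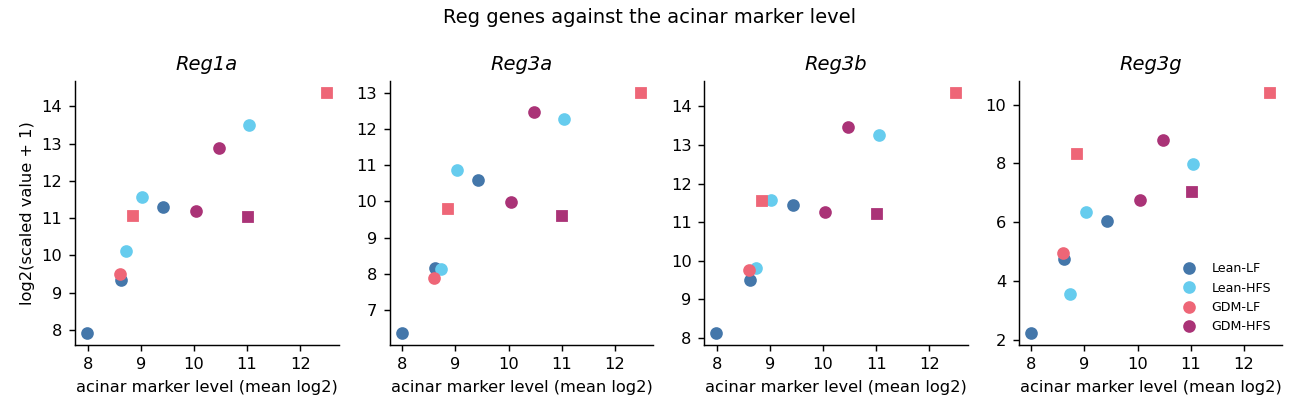
Each detected Reg gene, log2(scaled value + 1), against the acinar marker level (mean log2 over 32 genes); points are the 12 libraries coloured by group, squares those with the letter K in the title. Reg values are higher where the acinar level is higher, with Pearson r from 0.820 to 0.875, and GDM-HFS 3, the purple square near a level of 11.01, lies low for its acinar level in the Reg1a, Reg3a and Reg3b panels.

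The genes whose pattern over the 12 libraries was most like that of each member were ranked by Pearson r of log2 values, as a description. Nupr1, a stress-induced nuclear protein gene, was near Reg1a (r = 0.971) and nearest to Reg3a (0.970), at a mean value of 686. Padi4, which converts arginine to citrulline in proteins, was nearest for Reg1a (0.981) and Reg3b (0.983) at a mean of 8.68. Cytip, a cytohesin-binding protein gene, was in the top 5 of Reg1a, Reg3a and Reg3b (0.966 to 0.974). Gp2, a glycoprotein of zymogen granule membranes, was also near Reg1a (0.966). Prrg4 was in the top 5 of Reg1a and Reg3b, Htr1b and Anxa3 in that of Reg3a, and Ang and Calcb in that of Reg3b. For Reg3g the nearest genes were others: Bok, a BCL2 family gene (0.965), Mpzl2 (0.957), Spink3, a trypsin inhibitor of acinar cells (0.953), Dapk2 (0.952) and Nradd (0.950). The 12 points share their groups, their depth and the acinar level.

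Of the signalling genes listed for the IL-6 and IL-22 families, STAT3 and the Reg receptor, 34 of 35 were in the table and 32 were tested. In the GDM contrast averaged over diets 4 rose, 0 fell and 28 did not pass by limma, against 6.13% of all genes called higher, and the median log2 difference of the list was 0.26 (all genes 0.03). In each of the other 6 contrasts 0 of 32 passed by limma. These calls rested on few libraries: Cebpd alone passed without any 1 of Lean-LF 1, Lean-LF 2, Lean-HFS 1 or GDM-HFS 3, Cebpd and Junb without Lean-HFS 2, GDM-LF 2 or GDM-HFS 2, and 0 without the K libraries. Without GDM-LF 3 6 passed, the 4 and also Il11 and Osmr. With the acinar level as a covariate only Cebpd passed.

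The 4 were 2 ligands and 2 transcription factors. Il6, the founding cytokine of its family, stood at 49.5, 93.1 and 128 (LF) and 43.9, 114 and 107 (HFS) with lean dams, and at 267, 1481 and 400 (LF) and 41.3, 188 and 198 (HFS) with GDM dams. All 3 GDM-LF libraries were above every other library, and GDM-HFS 1 was the lowest of all. The averaged rise was 3.01-fold (log2 1.59 ± 0.474 SE, limma adjusted p = 0.0472). The LIF cytokine gene, Lif, rose by 0.94 (limma adjusted p = 0.0436), Cebpd by 1.06 (0.0122) and Junb by 0.88 (0.0226), the last 2 being transcription factors of the acute phase and early response.

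The libraries highest for Il6 were not those highest for Reg genes in every case. GDM-LF 3, second highest for Il6 at 400, had Reg1a, Reg3a and Reg3b values of 720, 236 and 859, and GDM-HFS 1, lowest for Il6, had 7543, 5670 and 11274. GDM-LF 2 was highest for both. The relation of Il6 to the Reg genes over the 12 libraries was not tested.

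By limma over all 12 libraries the receptor and transducer genes given here did not pass. DESeq2 called Osmr higher and Stat3 lower. By limma Osmr passed as higher without GDM-LF 3 or without Lean-HFS 3, and Stat3 as lower without Lean-LF 3. Stat3 stood at 2171 ± 436 (LF) and 1885 ± 138 (HFS) with lean dams and at 1522 ± 188 (LF) and 1652 ± 113 (HFS) with GDM dams (SD, n = 3; averaged difference -0.34, limma adjusted p = 0.0907). Osmr, the oncostatin M receptor gene, stood in the same order at 129 ± 8.73, 134 ± 51.4, 297 ± 115 and 133 ± 11.4 (0.58, 0.0904). Extl3 had group means from 192 ± 48.0 (GDM-LF) to 219 ± 15.5 (Lean-LF) (-0.15, 0.565). Socs3, a feedback target of STAT3, differed by 0.40 (0.318) and Il22ra1, a receptor chain for IL-22, by 0.27 (0.697), with 78.9 in GDM-LF 2 and at most 21.1 in the other libraries.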

How the data were processed

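The deposited table, per the file headers, came from HOMER: it counts reads in the exons of each gene (rat build rn5, both strands) and keeps 1 condensed entry per gene. Per the submitters' processing notes STAR 2.5.1b, HOMER 4.9 and DESeq2 were used. The deposited signal is read number relative to depth; the header names FPKM, but values are whole multiples of 1 step per library (100% whole up to 1000 reads, tolerance 0.1) and are not divided by length. The table's transcript length was used for values per kilobase. Since both strands were counted, antisense reads cannot be told apart.

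Libraries were rescaled by median ratios over 11337 genes above 0 in all of them (factors 0.827 to 1.27). limma 3.58.1 in R 4.3.3, with a mean-variance trend, was fitted to log2(scaled value + 1) of 12339 genes with a mean of at least 1, with 1 mean per group over 12 libraries, with Benjamini-Hochberg adjustment within each contrast. The test planned for FPKM was kept for this signal. edgeR 4.0.16 and DESeq2 1.42.0 were run on the recovered reads, rRNA entries left out. Other tests were two-sided exact or 100000-resample permutations over libraries. Genes named were the 5 members, the 5 genes of highest Pearson r to each and, of the signalling list, those that passed or else Extl3, Stat3, Socs3, Il6, Osmr and Il22ra1. Members and lists were chosen with earlier results of these data known. Of the lists, beta, alpha, delta and PP, and goblet and enteroendocrine markers served as checks only. Other settings tried were the pseudocount, the filter, rescaling, the trend, a replicate block, the acinar level, transcript length and leaving out libraries.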

Additional observations from a re-analysis of the deposited data

How the results depend on the processing

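The estimates of the members kept their sign in most settings: in settings other than leaving out 1 library, 308 log2 estimates kept sign and side of the threshold, 26 changed sign and 2 passed it, and with 1 library left out these numbers were 316, 18 and 2. The cause of these changes was not tested. Reg3g passed in the GDM contrasts averaged over diets and on LF with DESeq2 (1 member called in each) and without GDM-LF 3 (0 to 1 called over the 12 libraries left out). GDM-LF 3 was the lowest library of its group for Reg3g, so leaving it out raises the difference by construction. With the acinar level as a covariate the sign changed for Reg1a (-0.27) and Reg3a (-0.33) in the averaged GDM contrast, Reg3a (-0.88) and Reg3b (-0.57) in GDM on HFS, Reg3g (-0.27) in HFS averaged over dams, and Reg1a (-0.56), Reg3a (-0.20) and Reg3b (-0.47) in HFS with GDM dams. Without the K libraries it changed for the interaction (Reg1a 0.35, Reg3a 1.29, Reg3b 0.76, Reg3g 1.20), GDM on LF (Reg1a -0.031, Reg3a -0.48), GDM on HFS (Reg1a 0.32) and HFS with GDM dams (Reg3g 2.81). Deposited values without rescaling gave Reg1a 0.20 in GDM on HFS, where all genes had a median of 0.20 as well. With the length trend removed Reg3a was -0.069 in GDM on HFS, and Reg1a -0.077 and Reg3b -0.030 in HFS with GDM dams. In that contrast edgeR gave -0.99, -0.31 and -0.60 and DESeq2 -0.995, -0.32 and -0.61 for Reg1a, Reg3a and Reg3b. With 1 library left out, HFS averaged over dams ran from -0.11 to 1.25 for Reg3g. GDM on HFS ran from -0.83 to 0.87 (Reg1a), -0.88 to 1.20 (Reg3a) and -0.43 to 1.28 (Reg3b). HFS with GDM dams ran from -1.01 to 1.42 (Reg1a), -0.70 to 1.85 (Reg3a), -0.96 to 1.34 (Reg3b) and -1.83 to 0.89 (Reg3g). The share of Reg3g kept its direction and passed without the K libraries and without each library in turn. Its differences were 1.15 to 1.84 percentage points when 1 library was left out. Since all 12 shares are fully ordered by dam, leaving libraries out cannot undo that order, and these passes are not separate support. Within a diet, 3 against 3 cannot pass.

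The count of 4 signalling genes that rose, whose settings were chosen after seeing the data, was 2 with no filter on low values, 1 with no mean-variance trend, 1 with the acinar covariate, 2 with the length trend removed, 0 without the K libraries, 6 with DESeq2 (1 fell, Stat3), and 1 to 6 with 1 library left out. Over all genes the averaged GDM contrast had 756 higher and 670 lower; these were 1173 and 1111 with DESeq2, 426 and 245 without rescaling, 413 and 258 with no trend, 219 and 91 with the acinar covariate, 234 and 316 with the length trend removed, and 0 and 0 without the K libraries. Without Lean-LF 2 they were 135 and 48, and without Lean-LF 3 1210 and 1261. On LF the 105 higher and 90 lower genes became 0 in total with edgeR, a pseudocount of 5, no filter or no trend, and 920 and 768 with DESeq2.

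Replicate numbers do not pair the samples: 5 of 18 same-numbered pairs correlated above 0.1 in their deviations from the group means. A library correlated best with its own number in 12 of 36 checks. With the replicate block the averaged GDM estimate of Reg3g was 2.55 (limma adjusted p = 0.122), 0 members were called in any contrast, and 638 genes were higher and 502 lower. On LF 0 genes passed under the block. Depth limits Reg4, which had 0 reads, and Reg3g in Lean-LF 1, with 14 reads.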
